A study of Rattus norvegicus with 6 samples.

Results

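The Hsp70 and Hsp90 chaperones of the endoplasmic reticulum (ER), the J-proteins that work with them and 2 of their cofactors were examined in rat beta cells after a 24 h fast. These are 10 genes, namely Hspa5, Hyou1, Hsp90b1, Dnajb11, Dnajc3, Dnajb9, Dnajc10, Dnajc1, Sdf2l1 and Sil1, of 14217 genes that the platform annotation names. They were chosen by gene symbol, from probe sets annotated with a single symbol, and all 10 were found, on 14 probe sets. A probe set is a group of short probes against 1 transcript, and for each gene the probe set with the highest mean over the 6 arrays was used, with the others as a check.

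Male Wistar rats, 10 weeks old, were either fed ad libitum or fasted for 24 h, with no other treatment, and beta cells were purified from them by fluorescence-activated cell sorting (FACS). Each group held 3 biological replicates with 1 array each, and the cells of 5 rats were pooled in each separate isolation, so that a value belongs to a pool and not to an animal. The sorted cells were 92 ± 3% insulin-positive by the labels, were frozen within 3 h after the animals were killed, and their RNA was extracted together. Values are linear intensities, and a change is the log2 ratio of fasted over fed. A gene is said to have fallen or risen where it passed a fold of 1.5 and an unadjusted p under 0.05. The p is that of limma's moderated test over all 31042 probe sets. The thresholds are those of the study, which used its own software and reported far fewer changed transcripts. Its calls and the calls here are therefore not the same.

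A newly made secretory protein such as proinsulin enters the ER unfolded and is held there by Hspa5 (BiP, also called GRP78), the Hsp70 of this compartment, in a cycle driven by ATP. J-proteins bring substrates to Hspa5 and set off its ATP hydrolysis, nucleotide exchange factors such as Sil1 and Hyou1 release ADP and with it the client, and Hsp90b1 (GRP94) takes over a subset of clients for late folding steps. Beta cells carry one of the heaviest secretory loads in the body, and when unfolded proteins build up the transcription factors Atf6 and Xbp1 are known to raise these chaperones through ER stress response elements (ERSE) in their promoters.

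The promoters are shown first because all 10 genes are classed here by a shared compartment, and the elements through which this group is known to be controlled lie close to the start of transcription. All 10 genes had an entry in the RefSeq promoter table (assembly GRCr8), which runs from 250 bases before to 50 bases after the start of the gene model. Both strands were searched for ERSE (CCAAT, 9 bases of any kind, CCACG), for ERSE-II (ATTGG, 1 base of any kind, CCACG), for the CCACG core that both contain, and for the core of the UPR element (TGACGTG). The stretches below run 5′ to 3′ on the strand of the gene from position -200 to position 0, the first base of the gene model, and capitals mark the CCAAT and CCACG ends of ERSE, or the whole of ERSE-II, as read on this strand. The 5 genes with such an element are shown, followed by Sdf2l1, which has neither.
Hspa5: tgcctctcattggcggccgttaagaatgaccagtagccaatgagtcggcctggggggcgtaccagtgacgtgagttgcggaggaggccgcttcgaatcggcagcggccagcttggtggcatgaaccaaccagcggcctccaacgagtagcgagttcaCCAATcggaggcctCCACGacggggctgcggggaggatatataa
Hsp90b1: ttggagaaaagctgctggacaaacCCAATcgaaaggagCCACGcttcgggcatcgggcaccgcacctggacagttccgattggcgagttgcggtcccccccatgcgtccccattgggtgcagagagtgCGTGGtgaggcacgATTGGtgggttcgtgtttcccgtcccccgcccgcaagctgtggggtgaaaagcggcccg
Dnajc3: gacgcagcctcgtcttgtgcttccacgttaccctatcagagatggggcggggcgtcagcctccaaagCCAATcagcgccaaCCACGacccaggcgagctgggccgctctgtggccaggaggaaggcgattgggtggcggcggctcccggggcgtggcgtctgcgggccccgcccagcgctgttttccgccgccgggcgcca
Hyou1: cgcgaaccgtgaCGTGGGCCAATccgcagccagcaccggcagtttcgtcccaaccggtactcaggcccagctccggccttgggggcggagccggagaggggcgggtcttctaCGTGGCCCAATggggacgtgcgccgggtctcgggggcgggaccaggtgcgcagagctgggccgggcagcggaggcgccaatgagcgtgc
Dnajb11: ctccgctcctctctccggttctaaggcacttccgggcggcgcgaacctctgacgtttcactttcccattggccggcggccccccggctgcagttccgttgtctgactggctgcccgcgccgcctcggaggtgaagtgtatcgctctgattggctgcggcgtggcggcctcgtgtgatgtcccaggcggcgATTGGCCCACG
Sdf2l1: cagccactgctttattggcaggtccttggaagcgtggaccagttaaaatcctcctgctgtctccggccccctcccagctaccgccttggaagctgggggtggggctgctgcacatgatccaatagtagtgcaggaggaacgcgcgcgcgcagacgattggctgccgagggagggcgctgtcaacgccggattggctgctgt
They lie at chr3:38452816-38453016 (plus strand), chr7:23012293-23012493 (minus strand), chr15:102432467-102432667 (plus strand), chr8:53602682-53602882 (plus strand), chr11:91672800-91673000 (minus strand) and chr11:97376678-97376878 (plus strand).

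ERSE was found in 3 of the 10 genes, once in Hspa5 (position -43 to -25), once in Dnajc3 (-133 to -115) and at 2 places in Hsp90b1 (-176 to -158, and -72 to -54 on the opposite strand). ERSE-II was found in Dnajb11, ending on the first base of the gene model (-10 to 0), and at 2 places on the opposite strand of Hyou1 (-188 to -178 and -88 to -78). Among all 33469 promoters of the same length, 22 (0.0657%) held ERSE and 17 (0.0508%) held ERSE-II. The CCACG core alone was present in 10 of 10 members, but also in 31.6% of all promoters. TGACGTG stood in Hspa5, Hyou1 and Dnajc10, against 1.81% of all promoters, and at Hyou1 and Dnajc10 it overlapped a CCACG core. Dnajb9, Dnajc10, Dnajc1, Sdf2l1 and Sil1 held neither ERSE nor ERSE-II in this window. Hyou1 has a second entry with a start further downstream, and its window held none of the motifs. Of the 5 genes with ERSE or ERSE-II, 4 fell after fasting (Hyou1, Dnajb11, Hsp90b1 and Dnajc3) and Hspa5 did not pass, and of the 5 genes without, Sdf2l1 alone fell. Over all probe sets, 8.43% fell. Of 23 other measured genes with ERSE or ERSE-II, 4 fell and 2 rose, with a median change of -0.27, against -0.20 over all probe sets. Only exact matches to these letters were counted, so an element with a changed letter would be missed. The motif matches describe letters in a window, and no binding was measured.

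**Figure D1:**
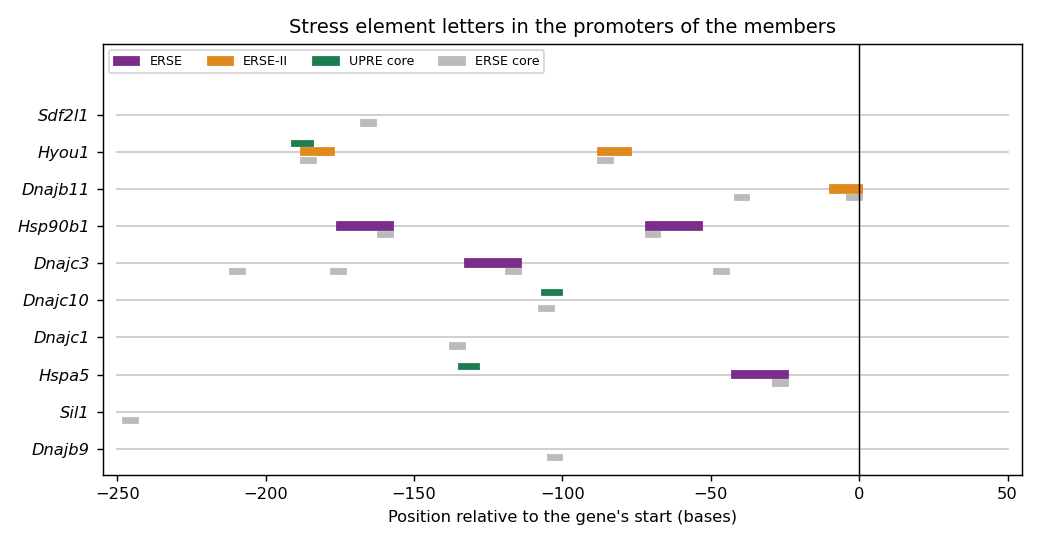
Position, in bases from the first base of the gene model, of each match to ERSE, ERSE-II, the UPR element core (UPRE core) and the CCACG core (ERSE core) in the promoters of the 10 genes, both strands, ordered from the largest fall after fasting (top) to the smallest. Matches to ERSE or ERSE-II occur in 5 genes, of which 4 stand among the 5 genes with the largest changes and 1 is Hspa5, while Sdf2l1 at the top has neither.

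After 24 h of fasting, 5 of the 10 genes fell, 0 rose and 5 did not pass, and the change had a negative sign in 10 of 10. The genes that fell were Sdf2l1 (3.00-fold), Hyou1 (2.25-fold), Dnajb11 (2.07-fold), Hsp90b1 (2.03-fold) and Dnajc3 (1.94-fold). Hspa5, to which all of these proteins relate, was 1.23-fold lower and did not pass. Over all probe sets, 2616 of 31042 (8.43%) passed as lower and 737 (2.37%) as higher, and the median change was -0.20, against a median of -0.73 over the 10 genes. After Benjamini-Hochberg adjustment over all probe sets, 0 of the 10 and 0 of 31042 (0%) passed 0.05 in limma, the smallest adjusted p being 0.155, although 7 of the 10 and 4622 of all probe sets had an unadjusted p under 0.05. The adjusted values depend on the variance model and the filter: with a robust variance 88 probe sets had an adjusted p under 0.05, with a pseudocount 83, and among probe sets brighter than the median 124. Hyou1, Dnajc3 and Sdf2l1 were among them each time, and Hsp90b1 in the first and the last. After quantile normalization, and with the arrays scaled to a common percentile, 0 probe sets had an adjusted p under 0.05. The same held with linear means, without the intensity trend, with the replicate block and with each array left out in turn. A higher floor gave 1 such probe set, which was not that of a member. In a sorted population, fewer cells of a type and less RNA per cell cannot be told apart.

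**Figure D2:**
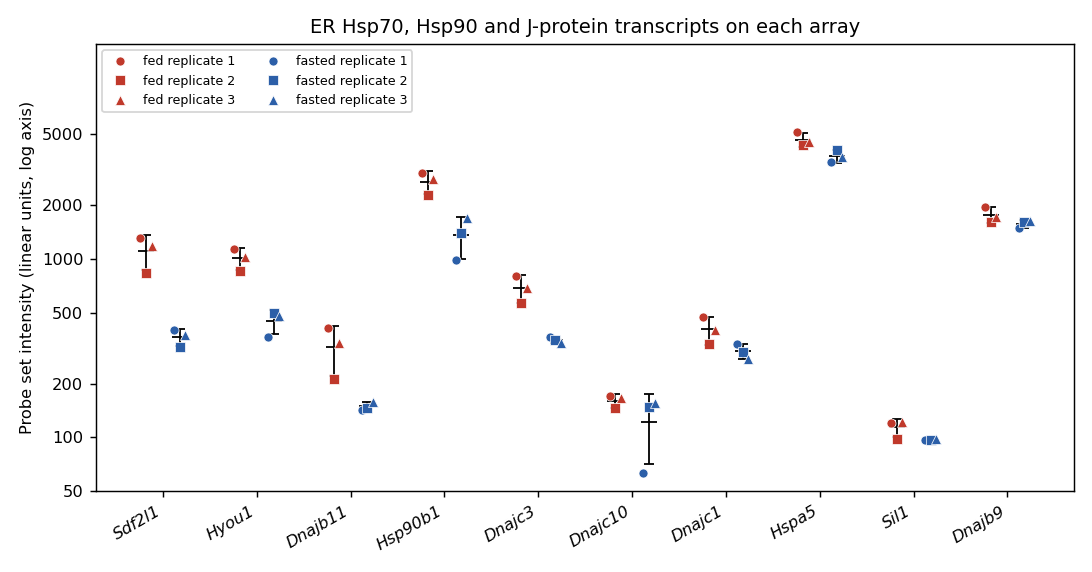
Intensity of each gene's probe set (log axis, linear units) on each of the 3 fed (red) and 3 fasted (blue) arrays, with the mean and SD of each group in black, genes ordered by their change. The fed and fasted points do not overlap for Sdf2l1, Hyou1, Dnajb11, Hsp90b1, Dnajc3, Hspa5 and Sil1, and they overlap for Dnajc10, Dnajc1 and Dnajb9.

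Of the 2 Hsp70-type proteins, Hspa5 is the central chaperone of the ER lumen and also the protein that holds the stress sensors inactive. Its intensity was 5110, 4319 and 4515 on the fed arrays and 3479, 4077 and 3744 on the fasted arrays. The lowest fed array stood just above the highest fasted one, so the groups did not overlap, but the gap was small. The means were 4648 ± 412 (SD, n = 3) and 3766 ± 300 (SD, n = 3), a log2 change of -0.30 (SE 0.098, 95% interval -0.54 to -0.07, limma adjusted p = 0.280), which falls short of 1.5-fold. Its probe set was among the brightest of the array, at the 99.9th percentile of mean intensity, and the highest value on any array was 7629. Intensities may flatten near the top of the range, which would understate a change, and whether this touched Hspa5 was not tested. The probe set of Hsp90b1, which fell 2.03-fold, stood at the 99.6th percentile. Its means of 2708 fed and 1356 fasted were below those of Hspa5, so it gives no comparison at the intensity of Hspa5.

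Hyou1 (GRP170) is the large Hsp70-related protein of the ER and serves as a nucleotide exchange factor for Hspa5. It measured 1142, 856 and 1022 when fed and 367, 497 and 480 when fasted, with every fasted array far below every fed one. The means were 1007 ± 144 (SD, n = 3) and 448 ± 70.7 (SD, n = 3), a log2 change of -1.17 (SE 0.160, 95% interval -1.56 to -0.78, limma adjusted p = 0.155). A second probe set of Hyou1 fell as well, from 269 ± 80.8 to 82.1 ± 44.3 (SD, n = 3 each), a log2 change of -1.80 (SE 0.437, limma adjusted p = 0.218), with no overlap between the groups.

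Hsp90b1 is the Hsp90 of the ER lumen, known for clients such as insulin-like growth factors, integrins and Toll-like receptors. The fed arrays gave 3037, 2286 and 2800 and the fasted arrays 982, 1402 and 1684. The groups were apart, and the fasted arrays differed among themselves more than those of most other members did. The means were 2708 ± 384 (SD, n = 3) and 1356 ± 353 (SD, n = 3), a log2 change of -1.02 (SE 0.215, 95% interval -1.55 to -0.50, limma adjusted p = 0.193).

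Among the 5 J-proteins, the 2 luminal ones that fell were Dnajb11 and Dnajc3. Dnajb11 (ERdj3) is a soluble J-protein that binds unfolded clients itself before passing them to Hspa5. It measured 410, 212 and 336 on the fed arrays and 142, 147 and 159 on the fasted arrays. The fasted arrays lay within a narrow band and the fed ones spread widely, with fed replicate 2 the closest to the fasted group. The means were 319 ± 99.8 (SD, n = 3) and 149 ± 8.70 (SD, n = 3), a log2 change of -1.05 (SE 0.241, 95% interval -1.64 to -0.47, limma adjusted p = 0.208). This was the only one of the 5 falls that was lost under any of the 16 alternative fits, namely a comparison of linear means with unequal variances, where it did not reach the p threshold.

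Dnajc3 (p58IPK, ERdj6) is a J-protein with tetratricopeptide repeats that also restrains the kinase Perk and its relative Pkr, and its loss in mice and humans leads to diabetes through loss of beta cells. The intensities were 806, 564 and 689 when fed and 364, 351 and 336 when fasted. As for Dnajb11, the fasted arrays were close together and below all fed arrays. The means were 686 ± 121 (SD, n = 3) and 350 ± 14.0 (SD, n = 3), a log2 change of -0.95 (SE 0.138, 95% interval -1.29 to -0.62, limma adjusted p = 0.155).

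The other three J-proteins did not pass. Dnajb9 (ERdj4) is the J-protein that keeps the stress sensor Ire1 bound to Hspa5 and takes part in ER-associated degradation. It measured 1963, 1618 and 1714 when fed and 1481, 1615 and 1630 when fasted, so that the groups overlapped. The log2 change was -0.16 (SE 0.095, 95% interval -0.39 to 0.07, limma adjusted p = 0.437), the smallest of the 10.

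Dnajc10 (ERdj5) is a J-protein with thioredoxin domains that reduces disulfides of proteins bound for degradation. Its intensities were 171, 145 and 165 when fed and 62.8, 148 and 157 when fasted, so that 1 fasted array was low and the other two lay within the fed range. The log2 change was -0.50 with a wide interval (SE 0.358, 95% interval -1.37 to 0.37, limma adjusted p = 0.506), and its second probe set gave -0.36 and did not pass either, again with fasted replicate 1 lowest.

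Dnajc1 (ERdj1) is a membrane J-protein whose cytosolic side binds ribosomes. It measured 475, 333 and 399 when fed and 334, 301 and 275 when fasted, so that the highest fasted value lay just above the lowest fed one. The log2 change was -0.39 (SE 0.151, 95% interval -0.76 to -0.03, limma adjusted p = 0.314). Its other probe sets went apart, since one gave 0.05 and did not pass and a dim one, with means of 8.83 fed and 3.34 fasted near the floor of 3.27, passed as lower with -1.33.

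Of the cofactors, Sdf2l1 is a luminal protein that forms a complex with Dnajb11 and keeps clients bound to it from aggregating. It showed the largest change of the group. The fed arrays gave 1310, 832 and 1184 and the fasted arrays 400, 320 and 373, so that even the lowest fed array was far above the highest fasted one. The means were 1109 ± 248 (SD, n = 3) and 364 ± 40.6 (SD, n = 3), a log2 change of -1.59 (SE 0.187, 95% interval -2.04 to -1.13, limma adjusted p = 0.155), and 0.625% of all probe sets had a change as negative as this or more so.

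Sil1 is a nucleotide exchange factor of Hspa5, as is Hyou1, and its loss causes Marinesco-Sjögren syndrome in humans. It gave 121, 98.2 and 122 when fed and 97.1, 96.5 and 97.8 when fasted. The groups did not overlap, but fed replicate 2 stood next to the fasted arrays and the change was small. The log2 change was -0.22 (SE 0.127, 95% interval -0.53 to 0.09, limma adjusted p = 0.433). The 2 exchange factors thus gave 2.25-fold and 1.16-fold lower means on the log scale, of which only that of Hyou1 passed.

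**Figure D3:**
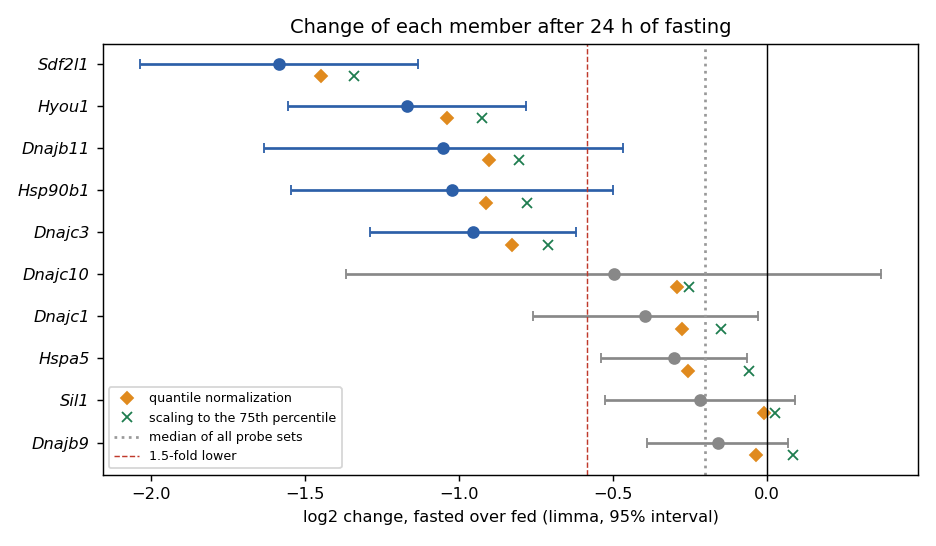
Log2 change (fasted over fed) of each gene with its 95% interval from limma, blue where it passed as lower and grey where it did not, and the value after quantile normalization (diamonds) and after scaling to the 75th percentile (crosses). The 5 falls stay beyond the dashed 1.5-fold line under both scalings, while Sil1 and Dnajb9 move to the other side of 0 under scaling to the 75th percentile.

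The scale of the arrays bears on all of these values. The median intensity was 20.2 to 21.8 on the fed arrays and 17.1 to 21.0 on the fasted arrays. When the arrays were brought to a common 75th percentile, the median change of all probe sets was 0.01 in place of -0.20. Of all probe sets, 1326 then passed as lower and 1426 as higher, and after quantile normalization 1495 as lower and 1263 as higher. Under both, 5 members remained lower and 0 higher. The median change of the members was then -0.48 and -0.56, respectively. Relative to the median of all probe sets, it was -0.53 in the values as deposited, -0.49 with the common 75th percentile and -0.54 after quantile normalization. Under the common 75th percentile the change of Hspa5 was reduced from -0.30 to -0.059. Dnajb9 and Sil1 changed sign there, to 0.08 and 0.03, so that 8 of 10 members were then negative.

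In the values as deposited, all fasted arrays were below all fed arrays in 7 of the 10 genes, compared with 5457 of 31042 probe sets (17.6%). The 75th percentile of intensity was 71.1 to 73.8 on the fed arrays and 53.8 to 69.5 on the fasted arrays. Overlap was not counted with the arrays at a common 75th percentile, so the small gaps of Hspa5 and Sil1 are shown for the deposited values alone. Among the 768 probe sets at least as bright as the median member, 59 (7.68%) fell and the median change was -0.11. Among the 5449 at least as bright as the dimmest member, 9.10% fell, with a median of -0.16.

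The genes kept nearly one order over the fed arrays, but not over the fasted ones. Fed replicate 2 was the lowest of the fed arrays in 10 of 10 genes and fed replicate 1 the highest in 9. Fasted replicate 1 was the lowest of the fasted arrays in 6 genes and the highest in 3 (Dnajc3, Dnajc1 and Sdf2l1), and fasted replicates 2 and 3 were each the lowest in 2. Fasted replicate 1 was also the dimmest of the 6 arrays, with a median of 17.1 and a 75th percentile of 53.8. The part of array scale in this order was not tested. The median over the genes of the deviation from each gene's own mean was 0.57, 0.08 and 0.40 (log2) on the fed arrays and -0.51, -0.31 and -0.25 on the fasted arrays. The Pearson correlation of each gene with the mean of the other members over the 6 arrays was between 0.59 (Dnajc10) and 0.98 (Hyou1). It carries the difference between the groups and does not describe the spread within them. The replicates correlated over all probe sets with r of 0.956 to 0.961 in the fed group and 0.887 to 0.945 in the fasted group. Leaving out any 1 of the 6 arrays kept the count at 5 lower and 0 higher, with a median over the genes of -0.64 to -0.83.

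The distance between Hspa5 and its partners was examined on the ratio of each gene to Hspa5 on the same array. These ratios inherit any understatement of the Hspa5 change at its high intensity. Relative to Hspa5, the log2 change was -1.28 for Sdf2l1, -0.87 for Hyou1, -0.75 for Dnajb11, -0.72 for Hsp90b1 and -0.65 for Dnajc3, and the fed and fasted ratios did not overlap for any of these 5. An exact permutation test, two-sided, gave p = 0.1 for each, which is the smallest this test can give with 3 against 3 arrays, and 0.15 after adjustment over the 9 genes compared. The ratios were given no other test. For Dnajb9 the ratio to Hspa5 went up by 0.14 with no overlap (exact permutation p = 0.1). For Dnajc10, Dnajc1 and Sil1 it was -0.19, -0.09 and 0.08, with overlapping groups.

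Other genes of ER folding were then set beside the members, from lists drawn up by function. Of 28 measured lectin chaperones, prolyl isomerases and other folding factors, 17 (60.7%) fell and 0 rose, with a median of -0.71. They include Fkbp11, a prolyl isomerase of secretory cells (663 ± 83.6 fed and 231 ± 10.2 fasted, log2 change -1.52). Creld2, a stress-induced disulfide isomerase that was placed in this list as a folding factor, fell as well (-1.14). So did Calr (calreticulin), the soluble lectin chaperone (2074 ± 154 and 1347 ± 23.0, -0.62). Of 22 measured protein disulfide isomerases and oxidases, 6 (27.3%) fell and 0 rose, with a median of -0.47. P4hb and Pdia6, both abundant isomerases of the ER, fell by 0.76 and 0.73 on the log2 scale, whereas Ero1b, an oxidase that recharges them, gave -0.52 and did not pass the fold. With the arrays at a common 75th percentile, P4hb, Pdia6 and Calr no longer passed the fold either (-0.51, -0.48 and -0.38), and the counts were 9 of 28 and 2 of 22.

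**Figure D4:**
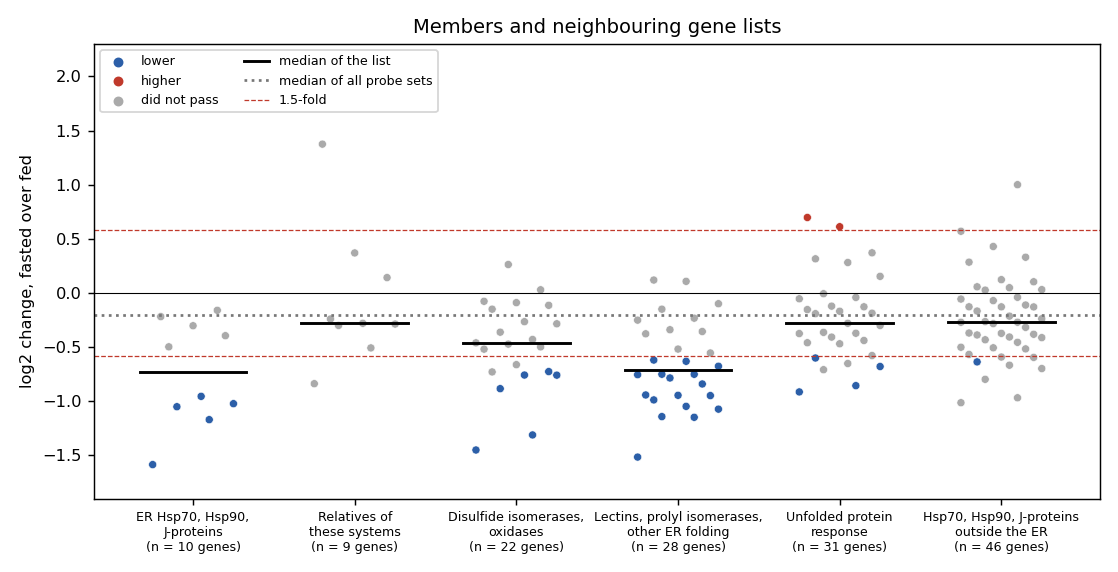
Log2 change (fasted over fed) of every measured gene of the members and of 5 related lists, blue where lower, red where higher and grey where the test was not passed, with the median of each list as a bar, the median of all probe sets (-0.20) as a dotted line and a 1.5-fold change as dashed lines. The medians of the members (-0.73) and of the lectin and prolyl isomerase list (-0.71) lie lowest, and that of the Hsp70, Hsp90 and J-proteins outside the ER (-0.27) lies near the dotted line.

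The other lists, with medians closer to that of all probe sets, gave other counts. Of 9 measured relatives of these systems in the ER, 0 fell and 0 rose, with a median of -0.28, and 2 had an unadjusted p under 0.05. Hspa13, an Hsp70-like ATPase of microsomes, gave -0.51, Sdf2, the close homologue of Sdf2l1, gave -0.28, and Cnpy3, a folding factor for Toll-like receptors that works with Hsp90b1, gave 1.37 with 1 group far wider than the other (56.3 ± 2.08 fed and 183 ± 124 fasted), and none of these passed. Of 31 measured sensors and effectors of the unfolded protein response, 4 (12.9%) fell and 2 rose, with a median of -0.28. Syvn1 (Hrd1), the ubiquitin ligase of ER-associated degradation, fell by 0.91 on the log2 scale, Hm13, the signal peptide peptidase, fell by 0.60, and Crebzf, a bZIP transcription factor, rose by 0.61, but only by 0.09, and without passing, as the mean of its probe sets. Of 46 measured Hsp70, Hsp90 and J-proteins outside the ER, 1 (2.17%) fell and 0 rose, with a median of -0.27. The gene was Stip1 (Hop), which joins cytosolic Hsp70 to Hsp90 (-0.64), while Trap1, the mitochondrial Hsp90, gave -0.50 and Dnajc19, of the mitochondrial import motor, gave -0.41 and neither passed. Hm13 and Stip1 no longer passed with the arrays at a common 75th percentile (-0.36 and -0.39) or after quantile normalization (-0.46 and -0.50). The difference between the lists was not tested.

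Among 9188 genes brighter than the median probe set, the 8 whose values over the 6 arrays were most like the mean of the members were Kdelr2, Ndufb3, Manf, Degs1, Spcs3, Sorbs2, P4hb and Slc38a10, with Pearson r from 0.998 to 0.995. Kdelr2 is a receptor that returns escaped ER proteins with a C-terminal KDEL signal, Manf is a small ER protein that binds Hspa5, and Spcs3 is a subunit of the signal peptidase. Of the 8, 3 passed as lower, namely Slc38a10 (-0.81), P4hb (-0.76) and Manf (-0.68). Kdelr2 (1543 ± 165 fed and 1065 ± 58.1 fasted) gave -0.53 and did not pass the fold, although its groups did not overlap in the values as deposited.

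The sort was checked by cell type markers on the same arrays. Of 14 beta cell markers 9 were measured, all brighter than the median probe set, and 0 passed in either direction. Their summed intensity was 23937 to 25213 on the fed arrays and 23114 to 24588 on the fasted arrays, with Iapp (amylin) the brightest. Acinar cells of the exocrine pancreas also use these chaperones heavily, and 22 of 26 of their markers were measured, all brighter than the median probe set, with Cpb1 (carboxypeptidase B) the brightest at 6844 ± 312 fed and 7008 ± 375 fasted (SD, n = 3 each). The summed intensity of the 22 ranged from 85868 to 95072 on the fed and from 76162 to 90998 on the fasted arrays, with overlap and a median change of -0.06. These sums are dominated by probe sets near the top of the range, such as that of Cpb1, where changes may be understated, so a similar sum does not show a similar content of acinar RNA. The same holds for the sum of the beta cell markers, led by Iapp. Of the 22 acinar markers, the 2 dimmest fell, the transcription factors Ptf1a (43.5 ± 12.9 fed and 13.2 ± 3.27 fasted, -1.70) and Bhlha15 (67.0 ± 18.5 and 36.3 ± 6.78, -0.86). Of 7 measured markers of islet alpha cells, 1 fell (Slc38a5), with summed intensity from 9668 to 13855 (fed) and from 8552 to 10736 (fasted). Fed replicate 2 was the highest fed array for Gcg (7629, against 4426 and 3532), Irx1, Irx2, Ttr and Gria3. For Slc38a5 and Pcsk2 it was not. It was also the highest for the PP cell markers Ppy (4270, against 2567 and 2057) and Pyy. Some markers of other types, such as Rbp4, Dcn and Cd74, were also highest on this fed array, but Hhex, Col1a1 and Ptprc were not. The same array was the lowest fed array for all members. It was also the lowest for the acinar markers Ptf1a (29.4, against 46.0 and 54.9) and Bhlha15 (46.1, against 74.0 and 81.0), but not for Cpb1 and Cpa1. Whether these bear on each other was not tested. Markers of delta cells, PP cells, leukocytes and fibroblasts had 0 that passed, those of duct and endothelial cells had 1 each that rose (Krt19 and Flt1), and of plasma cells, another secretory type, 0 of 4 measured markers exceeded the median probe set. Sst, Ppy, Gcg, Krt7, Plvap, Csf1r, Col3a1 and Sdc1 were the brightest of the other lists and 0 of these 8 passed. The part of acinar or alpha cell RNA in the falls of the chaperones was not tested.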

How the data were processed

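RNA of FACS-purified rat beta cells (3 fed and 3 fasted isolates) was hybridized to Affymetrix arrays. The authors computed the deposited intensities with dChip model-based expression analysis, normalized to the array of median intensity and corrected for mismatch hybridization. Neither a version of dChip nor detection calls stood in the sources used here. The deposited intensities are linear, so 57 control probe sets were left out, a floor was set at the 10th percentile (3.27), and limma 3.58.1 (R 4.3.3) was run on log2 values of 31042 probe sets (lmFit, eBayes with an intensity trend, 2 groups, two-sided, Benjamini-Hochberg over all probe sets). The floor understates the change of dim probe sets. The number of arrays limits the precision, and no scan dates were used, so that a scan batch was not tested.

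Of the probe sets, 20826 had 1 symbol in the platform annotation, 436 several and 9780 none. By gene number, 20758 matched the GRCr8 gene table, and 0 symbols changed. The 10 genes and the lists were chosen with earlier results of these data known. The text names the 10 genes, the 3 genes of each list with the smallest p, the brightest marker of each cell type and the 8 genes most like the mean of the 10. Other genes named, namely further marker genes and further genes with ERSE or ERSE-II, were chosen after their values were seen. Promoters came from RefSeq, and protein sequences were not used here. The fit was tested on simulated data. The 16 alternatives covered normalization, floor, filter, variance model, a comparison of linear means, replicate block, probe set choice and leaving out each array. Figures were drawn with matplotlib.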

Additional observations from a re-analysis of the deposited data

How the results depend on the processing

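The members gave 5 lower and 0 higher in each of the 16 alternatives except the comparison of linear means with unequal variances, which gave 4 lower (Dnajb11 was lost, at -1.10). Their median moved from -0.73 to -0.48 with scaling to the 75th percentile, where Dnajb9 (0.084) and Sil1 (0.026) also changed sign, and stayed between -0.64 and -0.83 when 1 array was left out. The counts of the related lists were less stable. Lower lectin chaperones, prolyl isomerases and other folding factors, 17 as reported, were 11 after quantile normalization, 9 with scaling to the 75th percentile, 10 with linear means, and 9 to 17 with 1 array left out (9 without fed replicate 1, 10 without fed replicate 3). Lower disulfide isomerases and oxidases went from 6 to 2 with scaling to the 75th percentile. Lower genes of the unfolded protein response, 4 as reported, were 2 after quantile normalization, 2 with scaling to the 75th percentile, 2 with linear means and 2 to 7 with 1 array left out (2 without fed replicate 3 or fasted replicate 1, 7 without fasted replicate 3). The higher ones, 2 as reported, were 0 with linear means, 1 with probe sets averaged per gene and 0 to 2 with 1 array left out (0 without fed replicate 1 or fasted replicate 1, 1 without fed replicate 2, fed replicate 3 or fasted replicate 3). Lower Hsp70, Hsp90 and J-proteins outside the ER, 1 as reported, were 0 after quantile normalization and with scaling to the 75th percentile, 4 with a pseudocount, 2 among probe sets brighter than the median, 2 without the intensity trend, 5 with robust variance, 3 with the replicate block, 3 with probe sets averaged per gene, and 0 to 10 with 1 array left out (0 without fasted replicate 1, 2 without fed replicate 3, 3 without fasted replicate 2, 10 without fasted replicate 3). The higher ones, 0 as reported, were 1 with scaling to the 75th percentile and 0 to 2 with 1 array left out (2 without fed replicate 1, 1 without fasted replicate 3). Lower relatives of the ER systems were 0 to 1 with 1 array left out, in place of 0, with 1 without fasted replicate 2 or 3. The higher ones were 1 in place of 0 with scaling to the 75th percentile, with a pseudocount, among probe sets brighter than the median, with robust variance and with the replicate block, and 0 to 1 with 1 array left out (1 without fasted replicate 3). Over all probe sets, 2616 lower and 737 higher became 1495 and 1263 after quantile normalization, 1326 and 1426 with scaling to the 75th percentile, 1625 and 269 with linear means, 2046 and 419 with a floor at the 25th percentile, 1450 and 479 when fed replicate 1 was left out, 1769 and 475 when fed replicate 3 was, 1674 and 545 when fasted replicate 1 was, 1698 and 631 when fasted replicate 2 was, and 5575 and 1539 when fasted replicate 3 was. The cause was not tested. Same-numbered arrays of the groups did not deviate together over all probe sets (r of 0.000, 0.011 and -0.053). With 3 arrays per group, and dim probe sets included, these values cannot decide whether the numbers pair the arrays. With the replicate block, 2046 probe sets were lower and 644 higher, and the members remained at 5 lower.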

Other observations

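Outside the 10 genes, ERSE or ERSE-II was found in the promoters of 33 genes, of which 23 were measured. Of these, 4 (17.4%) fell and 2 rose, 17 passed in neither direction, and the median log2 change was -0.27. Over all probe sets, 8.43% fell and 2.37% rose, with a median of -0.20. Those that fell were the chaperone Calr (-0.62), the folding factor Creld2 (-1.14), Ggct, an enzyme of glutathione turnover (150 ± 21.2 fed and 82.3 ± 24.1 fasted, -0.90), and the kinase Prkcz (-0.95, with overlapping groups). The 2 that rose were the dim probe sets of Calhm6 and Foxd4. Several well-known members of the stress response that hold an element in this window gave small changes, as Hspa5 did. Xbp1, the transcription factor activated by splicing, gave -0.19 (SE 0.072, 1509 ± 91.0 fed and 1325 ± 32.8 fasted), Herpud1, of ER-associated degradation, gave -0.41 (SE 0.133), and Canx, the membrane lectin chaperone, gave -0.25 (SE 0.104), and none of them passed the fold. In the values as deposited, the fed and fasted arrays did not overlap for any of these 3 genes. Ero1b (-0.52, SE 0.094) and Nucb1 (-0.52, SE 0.110), which also hold an element, gave larger changes, without overlap in the values as deposited. They did not pass the fold either. Overlap was not counted with the arrays brought to a common scale, so these gaps are shown for the deposited values alone. All of these genes were picked after their values were seen.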
